A study of Mus musculus with 6 samples.

Results

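The genes described here encode proteins of the synaptic vesicle and of the SNARE fusion machinery, with their partners in vesicle recycling and at the active zone. They were taken as 35 named genes, and every probe set annotated to exactly 1 of them was used, which gave 94 of the 45037 probe sets on the array. After dim probe sets were removed, 84 probe sets of 34 genes were tested, among 27022 in all. Whole brains were compared between 3 mice heterozygous for a periphilin knockout (periphilin+/-) and 3 wild-type littermates labelled C57BL/6. The mice were male and 2 months old, each brain was hybridised to its own Affymetrix array, and no treatment is given in the labels. The labels do not say where in the gene the disruption lies, and neurons, glia and vessels were measured together. In such whole tissue, fewer cells of a type and less RNA per cell cannot be told apart.

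Neurons package transmitter into small vesicles, dock them at the active zone and fuse them with the plasma membrane when calcium enters. Fusion is driven by a bundle of SNARE proteins, formed by synaptobrevin on the vesicle and by syntaxin and SNAP-25 on the plasma membrane, with synaptotagmin as calcium sensor and complexin as a regulator of the bundle. Afterwards NSF and its SNAP adaptors take the bundle apart, and clathrin adaptors, endophilin, amphiphysin, dynamin and synaptojanin retrieve the membrane. Several of these proteins come in paralogues that different brain regions use in different proportions.

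The arrays carried the signature of brain tissue. All 10 listed neuron markers, all 8 astrocyte markers and the 7 oligodendrocyte markers with a probe set lay above the dim limit. That limit was a mean signal of 19.05. Of the 4 listed liver genes with a probe set, Alb, Apoa1 and Fgb did not exceed it. The other, Ttr, did, with means of 10302 in heterozygous and 9409 in wild-type brains. The summed signal of 8 pituitary genes was 22025 on wild type 1 and 7274 on heterozygous 3, against 964 to 1487 on the other 4 arrays. The part of these genes' source in the values below was not tested, and values without single arrays are given where they moved a result. The log2 values of any pair of arrays correlated at 0.978 to 0.985. Periphilin itself, Pphln1, had a log2 difference of 0.08 (SE 0.11) at its brighter probe set and of -0.36 (SE 0.18) at its dimmer one. Neither passed the test (limma adjusted p = 0.970 and 0.956). The genotypes overlapped at the brighter one. The dimmer one measured 30.6, 44.4 and 36.6 in heterozygous and 63.2, 47.3 and 46.3 in wild-type brains, lower without overlap. The same separation held for 4.82% of all probe sets tested. Nothing in the labels says that the replicate numbers mark anything shared. Each limma p-value sets a genotype difference against the spread between animals of the same genotype, a spread estimated partly from all probe sets tested.

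None of the vesicle and SNARE genes passed the test between genotypes. Differences are heterozygous minus wild type on the scale of log2(intensity + 16), tested with limma and adjusted by the Benjamini-Hochberg method over all 27022 probe sets at a threshold of 0.05, and the smallest adjusted p among the 84 probe sets was 0.956. Over the whole array 4 probe sets passed, 0.0148% of those tested. Without adjustment, 2 of the 84 had a limma p below 0.05, or 2.38%, against 4.86% of all probe sets tested. Both were lower in heterozygous brains, Slc17a7 and a dim probe set of Sypl, where 2.42% of all probe sets were lower and 2.44% higher at that level. With single arrays left out the background moved as well. The count was 4 of 84 (4.76%) without heterozygous 2, where 5.48% of all probe sets were at that level, 5 (5.95%) without wild type 1, against 4.02%, and 6 (7.14%) without wild type 2, against 6.09%. None of the 84 passed the adjusted threshold in these fits.

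Taking for each gene its brightest tested probe set, 16 of 34 genes were higher in sign and 18 lower. The median log2 difference was -0.01, beside 0.01 over all 13024 genes tested, of which 1 passed the adjusted threshold (0.00768%). Slc17a7 was the only 1 of the 34 with an unadjusted limma p below 0.05, on the lower side, where 2.28% of all genes were lower and 2.14% higher at that level. The values ran from -0.27 for Slc17a7 to 0.17 for Cplx1. The genotypes did not overlap for 3 genes, Slc17a7 and Syt11 on the lower side and Cplx2 on the higher side, which is 8.82% against 10.2% of all genes (4.97% lower and 5.21% higher). Over the 84 probe sets it was 10, or 11.9%, with 3 higher and 7 lower, beside 10.3% of all probe sets (5.45% higher and 4.82% lower). With 3 arrays against 2, genotypes separate more often for any gene. Without heterozygous 2 the number was 6 of 34 genes (17.6%), against 20.8% of all genes, and without heterozygous 3 it was 8 (23.5%), against 22%. Without wild type 2 it was 12 (35.3%), against 23.4%. Over the 84 probe sets it was 16 (19.0%, against 18.8% of all), 18 (21.4%, against 21.8%) and 21 (25.0%, against 21.9%) without heterozygous 1, 2 and 3, and 25 (29.8%, against 22.4%) without wild type 2.

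These differences were measured closely. The median standard error over the 34 genes was 0.09 on the log2 scale, against 0.13 over all genes. All genes were not matched to the 34 in signal, so the closer measurement is not shown to be particular to these genes. For 32 of the 34 the 95% confidence interval lay inside -0.5 to 0.5, that is, within a factor of 1.41 in either direction, and the exceptions were Vamp2 and Amph. The same held for 71.5% of all genes tested. No interval of any of the 84 probe sets reached -1 or 1, so a halving or a doubling lay outside each of them on this scale, which understates the change of dim probe sets.

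**Figure D1:**
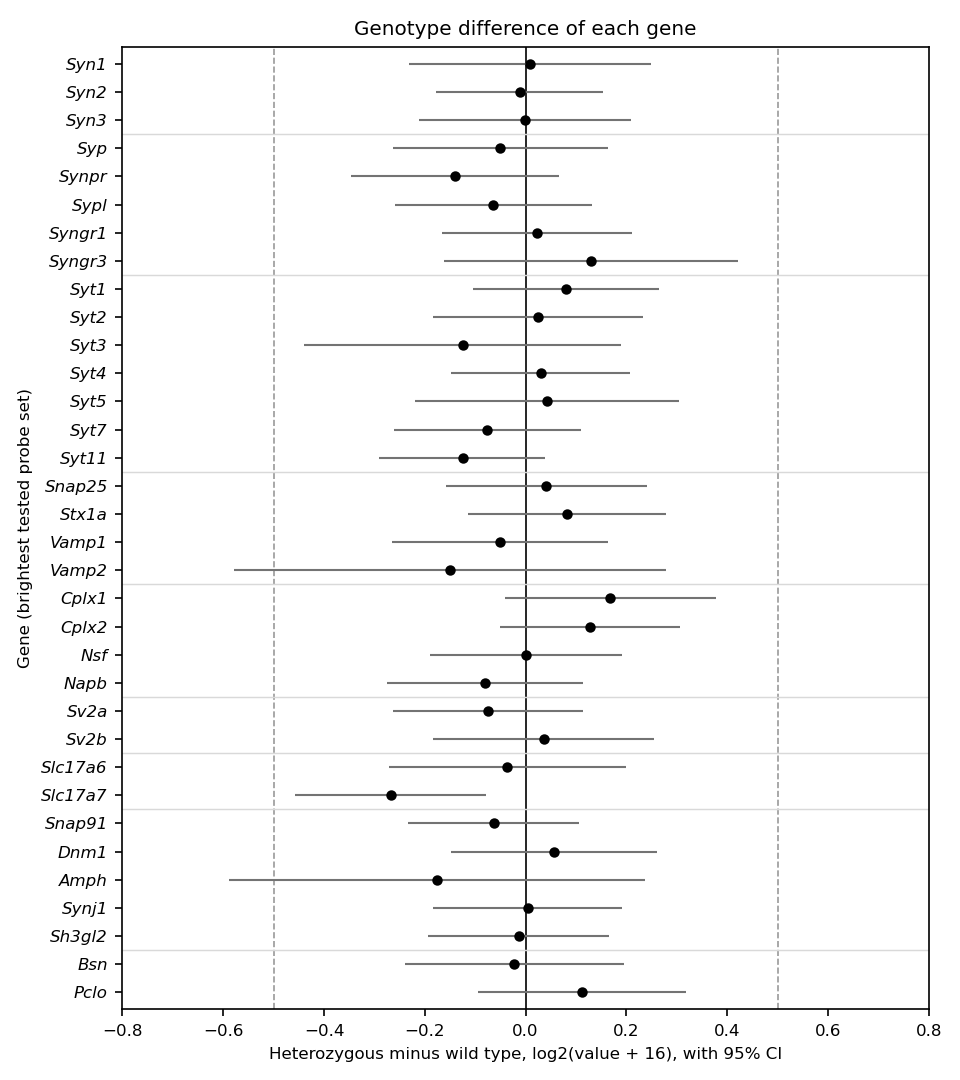
Genotype difference of each of the 34 genes at its brightest tested probe set, heterozygous minus wild type in log2(intensity + 16) units, with 95% confidence intervals from limma; dashed lines mark -0.5 and 0.5. The interval of Slc17a7 (-0.46 to -0.08) is the only one that leaves out 0, and those of Vamp2 and Amph cross -0.5.

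The transporters that fill vesicles with glutamate held the lowest value among the brightest probe sets of the 34 genes. Slc17a7 encodes VGLUT1, the transporter of most cortical, hippocampal and cerebellar granule cell synapses. Its single probe set, 1428986_at, measured 555, 544 and 501 in the heterozygous brains and 640, 620 and 674 in the wild-type brains. Every heterozygous brain was below every wild-type brain. The means were 533 ± 28.3 and 645 ± 27.1 (SD, n = 3 each), a log2 difference of -0.27 (SE 0.09) or a ratio of 0.831, with an interval from 0.729 to 0.947. The unadjusted limma p was 0.00982 and the adjusted p was 0.956. It kept its sign in all 17 alternative fits, from -0.30 to -0.23, with an unadjusted limma p of 0.00655 to 0.0422 and a lowest adjusted p of 0.615.

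Slc17a6 encodes VGLUT2, which serves mainly thalamic, brainstem and hypothalamic synapses. Its brightest probe set measured 795, 1026 and 932 in heterozygous and 896, 886 and 1032 in wild-type brains, and the genotypes overlapped fully. The log2 difference was -0.04 (SE 0.11, interval -0.27 to 0.20), and the second probe set lay at 0.02 (SE 0.10). Within each array, the log2 ratio of Slc17a7 to Slc17a6 was -0.51, -0.90 and -0.87 in heterozygous and -0.48, -0.50 and -0.60 in wild-type brains. Heterozygous 2 and 3 were below all wild-type brains, while heterozygous 1 lay among them. The difference of the ratios was -0.23 (two-sided exact permutation p = 0.2, and 0.9 after adjustment over 8 pairs), where 3 against 3 brains cannot give less than 0.1. That the pair responded unequally was therefore not shown.

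Slc17a7 has region-specific use, so markers of excitatory forebrain neurons are set beside it. Of the 8 such markers measured, 4 were higher and 4 lower in sign, and 4 had an unadjusted limma p below 0.05, in both directions. Nrgn, a postsynaptic calmodulin-binding protein, was at -0.37 (SE 0.09) and the neuronal transcription factor gene Neurod6 at -0.27 (SE 0.11). Camk2a, a calcium-dependent kinase of the postsynapse, was at 0.47 (SE 0.12) and the layer 4 transcription factor gene Rorb at 0.24 (SE 0.11). Each of the 4 was without overlap between genotypes, and none passed the adjusted threshold (limma adjusted p = 0.956 for each). Over all genes tested, 4.42% had an unadjusted limma p below 0.05 and 10.2% were without overlap. The summed signal of the 8 markers was 4463 to 5287 in heterozygous and 4532 to 4581 in wild-type brains. Heterozygous 1 was lowest and heterozygous 2 highest. These sums lean on Camk2a, the brightest of the 8, at 2040, 2810 and 2668 in heterozygous and 1898, 1688 and 1772 in wild-type brains. Nrgn, the next brightest, went the other way, at 954, 932 and 995 against 1165, 1208 and 1368. Of the 10 cerebellar markers, 7 were higher and 3 lower in sign. Fat2, a cadherin of granule cells, was higher without overlap at 0.35 (SE 0.13, limma adjusted p = 0.956). It was the only 1 with an unadjusted limma p below 0.05. The transcription factor gene Zic2 was higher without overlap at 0.26 (SE 0.15). Thus 1 of the 10 was at that level, where 4.42% of all genes were, and 2 were without overlap, where 10.2% of all genes were. The summed signal of the cerebellar markers was 13143 to 14400 in heterozygous and 12526 to 14060 in wild-type brains, and that of the 9 markers of thalamus and brainstem was 1798 to 1884 and 1596 to 1876. Whether the makeup of the dissected tissue had a part in the Slc17a7 values was not tested.

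Both glutamate transporter genes lie on chromosome 7, and the bases before their starts are shown because this pair held the largest unequal difference. Sequences come from RefSeq (build GRCm38.p6, plus strand, 5′ to 3′), with the GC box GGGCGG or its reverse complement in capitals, overlapping matches included. For Slc17a7 this is chr7:45163671-45163920, and for the first of 2 listed starts of Slc17a6 it is chr7:51621580-51621829.
Slc17a7: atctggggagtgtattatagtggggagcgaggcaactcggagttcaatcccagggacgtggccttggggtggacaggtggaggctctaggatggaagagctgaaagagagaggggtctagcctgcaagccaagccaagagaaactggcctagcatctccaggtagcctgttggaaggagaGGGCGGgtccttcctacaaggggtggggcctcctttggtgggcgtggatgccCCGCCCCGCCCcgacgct
Slc17a6: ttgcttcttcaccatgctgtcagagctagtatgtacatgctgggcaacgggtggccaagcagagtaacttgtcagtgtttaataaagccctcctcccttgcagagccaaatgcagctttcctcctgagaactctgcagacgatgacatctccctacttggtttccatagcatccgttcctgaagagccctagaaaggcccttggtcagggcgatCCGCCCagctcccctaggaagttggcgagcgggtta
The window of Slc17a7 holds the motif 3 times, with a pair of overlapping matches next to the start, and that of Slc17a6 holds it once. The window of the other Slc17a6 start has no match. Windows were found for 28 of the 35 genes, 38 windows in all, each covering the 250 bases before a start. GGGCGG occurred on either strand in 21 of the 38 (55.3%), in 42.6% of the windows of protein-coding genes and in 32.7% of all 32851 windows. The cAMP response element TGACGTCA occurred in 2 of the 38, those of Syn1 and Sh3gl2 (5.26%, against 1.55% of all windows), and TATAAA in 2 windows of Sv2b (5.26%, against 12.4%). The median GC content was 61.2% in these windows and 55.6% in those of protein-coding genes. These matches are descriptions of the letters, and no factor binding was measured.

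The differences of the core SNARE genes lay within the spread of the brains. Snap25, the plasma membrane SNARE that contributes a pair of helices, measured 8874, 7853 and 7406 in heterozygous and 7836, 8137 and 7426 in wild-type brains at 1416828_at. The genotypes overlapped, with a log2 difference of 0.04 (SE 0.09, interval -0.16 to 0.24). A second Snap25 probe set, with means of 78.3 and 103, lay at -0.35 (SE 0.21). Stx1a, or syntaxin 1A, measured 1607, 1421 and 1445 in heterozygous and 1287, 1452 and 1486 in wild-type brains. Its difference was 0.08 (SE 0.09) by that probe set, whose _x_at suffix marks probes that can match other transcripts, and -0.06 (SE 0.13) by the other.

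Vamp2, the synaptobrevin of most forebrain synapses, varied more within genotypes than any other of the 34 genes. Its brightest probe set, 1420834_at, measured 2813, 2081 and 1731 in heterozygous and 2998, 1791 and 2585 in wild-type brains. Heterozygous 1, wild type 1 and wild type 3 were high and the other brains low, so the signal split across both genotypes. The within-genotype SD was 0.35 and 0.38 on the log2 scale, against a median of 0.10 for the 34 genes. The log2 difference was -0.15 (SE 0.19), and it was 0.01 without heterozygous 3 and also without wild type 1, -0.34 without heterozygous 1 and -0.36 without wild type 2. The second Vamp2 probe set lay at -0.14 (SE 0.13) and did not share the split: wild type 3 was highest at 913 and the other brains lay between 604 and 705. Vamp1, the synaptobrevin that prevails in spinal cord and brainstem, had means of 1768 ± 49.8 and 1841 ± 224 (n = 3 each) and a difference of -0.05 (SE 0.10).

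**Figure D2:**
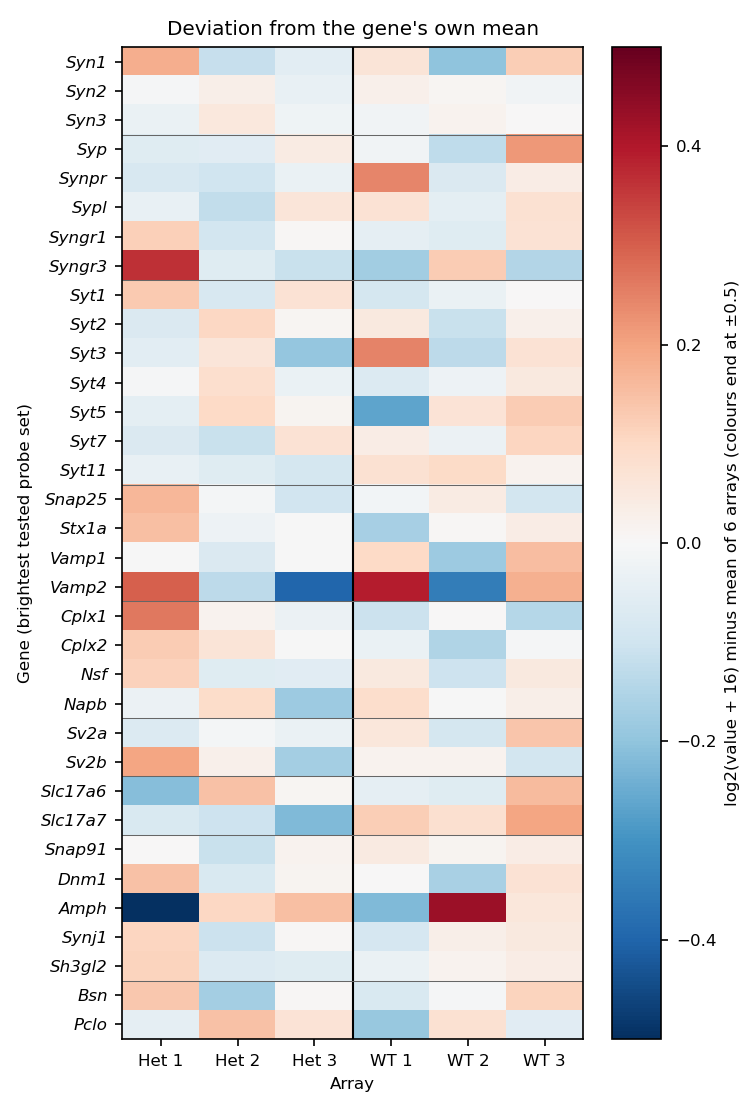
Deviation of each array from the gene's own mean over the 6 arrays, in log2(intensity + 16) units, for the brightest tested probe set of 34 genes (rows, grouped by role) on 3 heterozygous and 3 wild-type arrays (columns). Vamp2 and Amph vary most within genotypes, and on wild type 3 most rows are above their own mean (27 of 34).

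The complexins, small proteins that clamp and promote SNARE-driven fusion, were higher in sign at all 6 tested probe sets. Of these, 1 turned sign under other settings, as given below for Cplx2. The direction was not particular to complexins. Of the 10 listed neuron markers, 9 were higher in sign and 1 lower. Their median log2 difference was 0.09, and none had an unadjusted limma p below 0.05. Cplx1 measured 4995, 4210 and 4073 in heterozygous and 3854, 4159 and 3761 in wild-type brains at its brightest probe set. Heterozygous 1 was highest, and heterozygous 3 lay below wild type 2, so the genotypes overlapped. Between the genotypes Cplx1 was at 0.17 (SE 0.09, limma adjusted p = 0.956), at 0.08 without heterozygous 1 and at 0.23 without heterozygous 3. The other Cplx1 probe sets lay at 0.12 (SE 0.08) and 0.13 (SE 0.09). At the first of these, 1417746_at, the heterozygous brains measured 3737, 3496 and 3521, each above the wild-type values of 3334, 3181 and 3342.

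Cplx2 measured 1835, 1759 and 1677 in heterozygous and 1639, 1510 and 1672 in wild-type brains at 1455672_s_at, without overlap but with heterozygous 3 and wild type 3 almost equal. Its difference was 0.13 (SE 0.08, limma adjusted p = 0.956), with 0.03 (SE 0.11) and 0.14 (SE 0.10) at the other probe sets. When each array was centred on its median, the value of 0.03 became -0.01 and the other complexin probe sets stayed above 0, and leaving out single arrays moved it from -0.095 to 0.117. The ratio of Cplx2 to Cplx1 within arrays differed by -0.04 between genotypes (exact permutation p = 0.6).

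The genes for taking SNARE bundles apart differed little between the genotypes. Nsf, the ATPase, measured 4333, 3835 and 3842 in heterozygous and 4138, 3718 and 4139 in wild-type brains, a log2 difference of 0.00 (SE 0.09, interval -0.19 to 0.19). Napb, a SNAP adaptor found mainly in brain, had means of 2137 ± 203 and 2254 ± 72.3 (n = 3 each) and a difference of -0.08 (SE 0.09), and its 5 tested probe sets ran from -0.11 to 0.08.

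Among the synaptotagmins, none of 7 genes had an unadjusted limma p below 0.05, and 4 were higher and 3 lower in sign. Syt1, the fast calcium sensor of forebrain synapses, measured 5143, 4440 and 4935 in heterozygous and 4413, 4593 and 4705 in wild-type brains, and the genotypes overlapped. Its log2 difference was 0.08 (SE 0.08, interval -0.11 to 0.26). Syt2, the fast sensor of the hindbrain, had means of 385 ± 24.4 and 378 ± 23.3 (n = 3 each) and a difference of 0.02 (SE 0.10). The Syt1 to Syt2 ratio differed by 0.05 (exact permutation p = 0.8).

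Syt11, a synaptotagmin that does not bind calcium, measured 2762, 2718 and 2666 in heterozygous and 2988, 3035 and 2867 in wild-type brains at its brightest probe set, 1456464_x_at. The heterozygous brains were lower without overlap, at -0.13 on the log2 scale (SE 0.08, limma adjusted p = 0.956). The other 4 probe sets of the gene were higher in sign, at 0.03 to 0.12. At 1429314_at the heterozygous brains, at 2461, 2247 and 2236, were above the wild-type brains, at 2155, 2119 and 2106, again without overlap. Probe sets annotated to 1 gene thus separated the same brains in opposite directions. The lower of them has the _x_at suffix, which marks probes that can match other transcripts. The signs stayed opposed with quantile normalization, at -0.17 and 0.10, and with median centring, at -0.16 and 0.09.

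The remaining synaptotagmins overlapped between genotypes at every tested probe set. Syt5, a sensor also found on dense-core vesicles, measured 265, 295 and 278 in heterozygous and 226, 289 and 302 in wild-type brains, with wild type 1 lowest and a difference of 0.04 (SE 0.12). Syt7, a slower, high-affinity sensor, was at -0.08 (SE 0.08) and ranged from -0.26 to 0.22 over 4 probe sets. Syt3, a calcium sensor of high affinity, was at -0.13 (SE 0.14), and Syt4, a synaptotagmin induced by neuronal activity, at 0.03 (SE 0.08) by its brighter and -0.25 (SE 0.20) by its dimmer probe set.

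**Figure D3:**
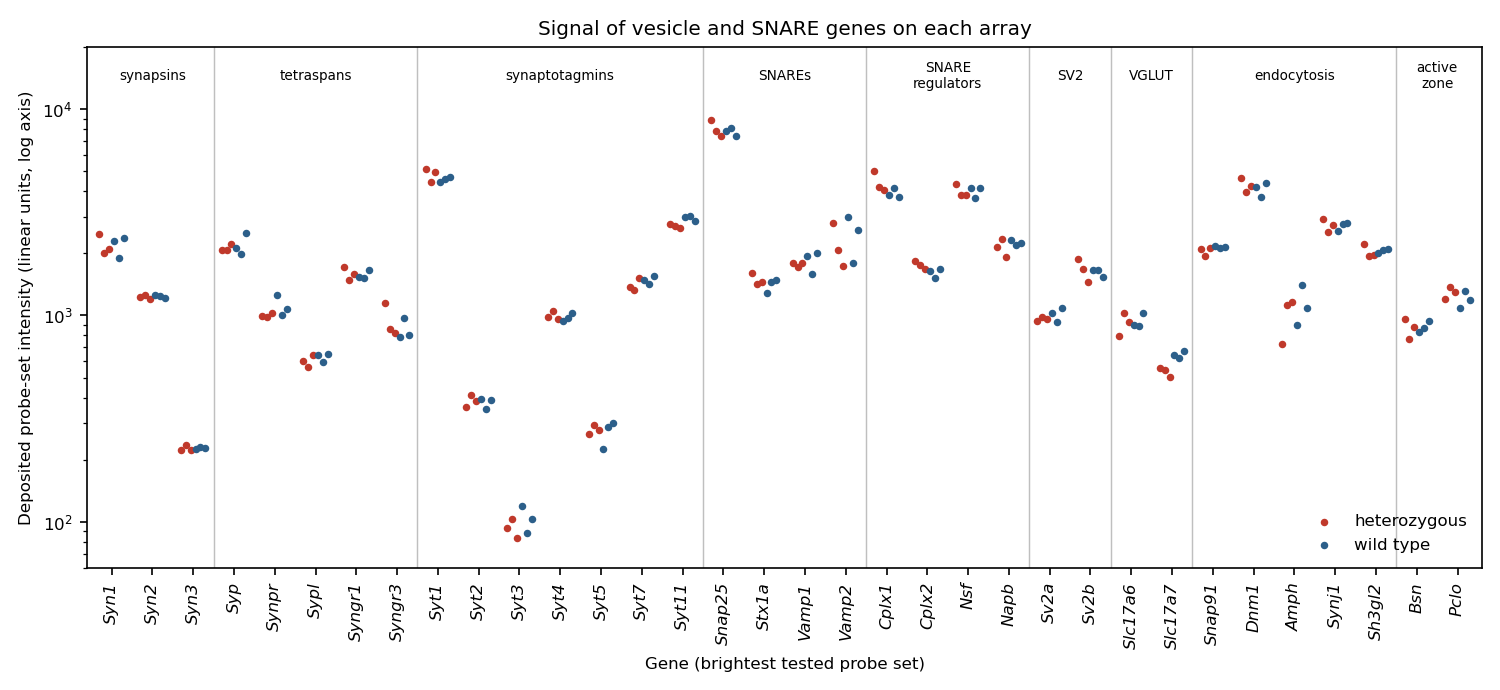
Deposited intensity (log axis) of the brightest tested probe set of each of the 34 genes on every array, with 3 heterozygous (red) and 3 wild-type (blue) brains per gene in the order of their replicate numbers. Slc17a7, Syt11 and Cplx2 are the 3 genes without overlap; heights of different genes come from different probes and are not comparable.

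The synapsins, phosphoproteins that tether vesicles in the reserve pool, had values between -0.01 and 0.01 at their brightest probe sets. Syn1 measured 2478, 2015 and 2109 in heterozygous and 2289, 1898 and 2380 in wild-type brains, a log2 difference of 0.01 (SE 0.11, interval -0.23 to 0.25). Syn2 had means of 1224 ± 28.3 and 1233 ± 17.5 (n = 3 each) at its brightest probe set and a difference of -0.01 (SE 0.08). All 5 tested Syn2 probe sets were lower in sign, from -0.20 to -0.01, and none had an unadjusted limma p below 0.05. At 1460230_at the heterozygous brains, at 1109, 995 and 1134, were below the wild-type brains, at 1156, 1172 and 1273, without overlap (-0.15, SE 0.09). Syn3 was at 0.00 (SE 0.10) by its brightest probe set. The Syn1 to Syn2 ratio differed by 0.02 (exact permutation p = 0.9).

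The vesicle tetraspans, proteins with 4 membrane passes whose best known member is synaptophysin, held the other probe set with a low p. Syp, synaptophysin itself, measured 2069, 2072 and 2222 in heterozygous and 2134, 1976 and 2509 in wild-type brains. Wild type 3 was highest, the genotypes overlapped, and the log2 difference was -0.05 (SE 0.10). Sypl, a synaptophysin-like protein that many tissues make, measured 48.5, 32.0 and 44.6 in heterozygous and 55.0, 60.3 and 77.3 in wild-type brains at 1435082_at. The heterozygous brains were lower without overlap, at -0.48 (SE 0.18). The limma adjusted p was 0.956 and the unadjusted limma p was 0.0216.

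This Sypl signal is dim, and the size of its difference moved with the constant added before the logarithm, from -0.62 with 1 to -0.28 with 64. The unadjusted limma p was 0.0873 without heterozygous 2 and 0.098 without wild type 3. The brightest Sypl probe set, with means of 601 ± 39.4 and 628 ± 31.4 (n = 3 each), lay at -0.06 (SE 0.09), and the 6 tested probe sets ran from -0.48 to 0.24. Besides 1435082_at, 1422881_s_at was lower without overlap, at -0.20 (SE 0.10). Synpr, or synaptoporin, a relative of synaptophysin found in hippocampal mossy fibre terminals, was at -0.14 (SE 0.09). Syngr1, a synaptogyrin whose gene shares chromosome 15 with Pphln1, was at 0.02 (SE 0.09).

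Syngr3, the synaptogyrin that interacts with the dopamine transporter, had the widest spread of the tetraspans. It measured 1155, 855 and 824 in heterozygous and 789, 974 and 804 in wild-type brains, with heterozygous 1 apart from the rest. Its difference was 0.13 (SE 0.13), and -0.02 without heterozygous 1. The Syngr1 to Syngr3 ratio differed by -0.11 between genotypes (exact permutation p = 0.5).

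Probe sets of 1 gene often differed in sign. Of the 25 genes with several tested probe sets, 18 had values of both signs. The other 7 kept 1 sign throughout, with Cplx1, Cplx2 and Sv2b higher and Syn2, Sh3gl2, Vamp2 and Bsn lower.

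**Figure D4:**
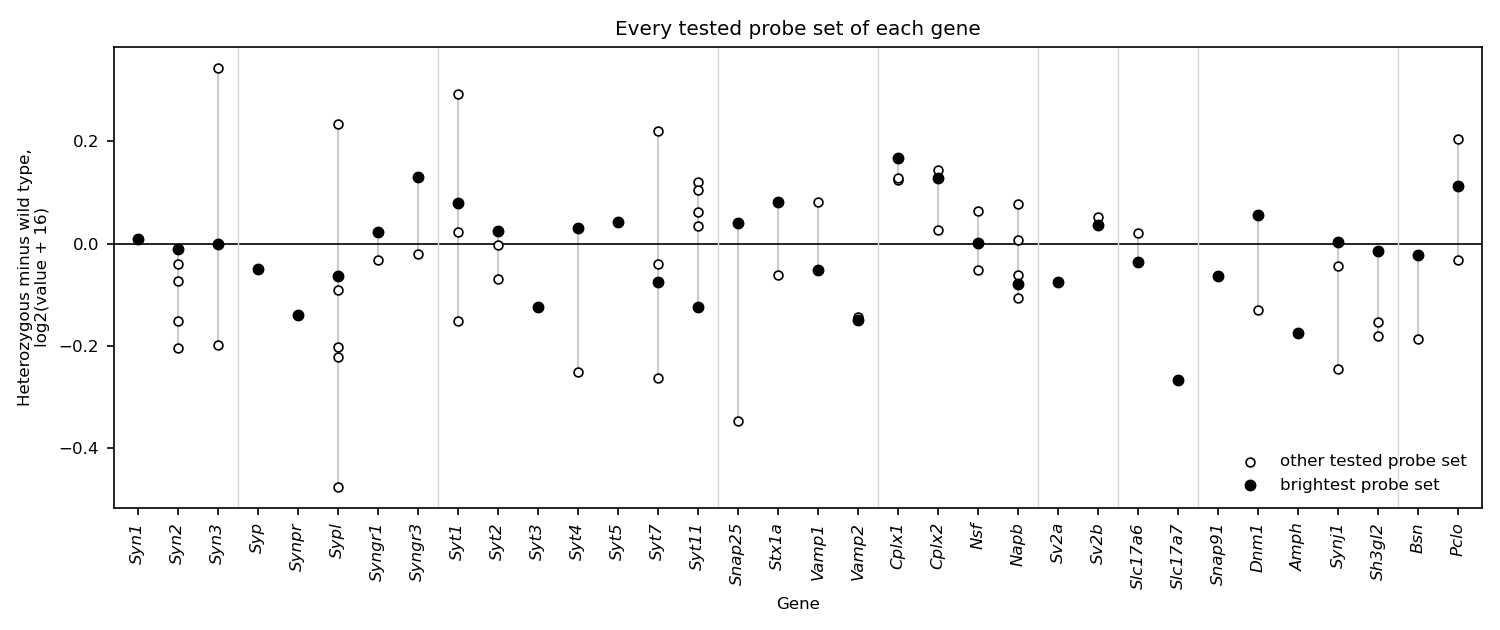
Log2 difference, heterozygous minus wild type in log2(intensity + 16) units, at every tested probe set of each gene; filled points are the brightest probe set and open points the others. Of 25 genes with several tested probe sets, 18 have values of both signs, and Sypl spans from -0.48 to 0.24.

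SV2 glycoproteins, transporter-like vesicle proteins of which SV2A binds the antiepileptic levetiracetam, differed by less than the spread of the brains. Sv2a measured 939, 980 and 962 in heterozygous and 1027, 927 and 1088 in wild-type brains, a log2 difference of -0.07 (SE 0.09, interval -0.26 to 0.11). Sv2b measured 1886, 1673 and 1460 in heterozygous and 1665, 1664 and 1542 in wild-type brains, a difference of 0.04 (SE 0.10). The Sv2a to Sv2b ratio differed by -0.11 (exact permutation p = 0.5). The only probe set of Sv2c, a form found mainly in basal ganglia and midbrain, was not tested: its mean of 18.7 lay under the dim limit, with values of 11.3 to 32.6 in heterozygous and 12.3 to 24.4 in wild-type brains.

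Of the 5 genes of vesicle retrieval, none had an unadjusted limma p below 0.05. Dnm1, the dynamin that cuts vesicles from the membrane, measured 4628, 3972 and 4224 in heterozygous and 4193, 3740 and 4405 in wild-type brains, a log2 difference of 0.06 (SE 0.09, interval -0.15 to 0.26). Amph, or amphiphysin, which brings dynamin to the vesicle neck, measured 726, 1125 and 1161 in heterozygous and 895, 1411 and 1089 in wild-type brains. Heterozygous 1 was lowest and wild type 2 highest, so the spread within genotypes, 0.37 and 0.33 on the log2 scale, exceeded the difference of -0.18 (SE 0.19). That difference was 0.04 without heterozygous 1 and -0.01 without wild type 2.

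The other retrieval genes were tighter. Snap91, the clathrin adaptor AP180, was at -0.06 (SE 0.08). Synj1, the phosphatase that sheds the coat, was at 0.00 (SE 0.09), and 2 further probe sets of it gave -0.04 and -0.25. Sh3gl2, or endophilin A1, was at -0.01 (SE 0.08) by its brightest probe set, while both other probe sets were lower without overlap, at -0.15 (SE 0.09) and -0.18 (SE 0.09). At the last, 1449228_at, the heterozygous brains measured 765, 750 and 753 and the wild-type brains 811, 831 and 940 (limma adjusted p = 0.956).

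The active zone scaffolds Bsn and Pclo, the giant proteins bassoon and piccolo that organise the release site, overlapped between genotypes. Bsn measured 959, 773 and 875 in heterozygous and 827, 870 and 944 in wild-type brains, a log2 difference of -0.02 (SE 0.10). Pclo measured 1200, 1374 and 1299 in heterozygous and 1086, 1308 and 1191 in wild-type brains, a difference of 0.11 (SE 0.09, interval -0.09 to 0.32). Its other probe sets lay at 0.20 (SE 0.11) and -0.03 (SE 0.12). The Bsn to Pclo ratio differed by -0.13 (exact permutation p = 0.7).

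Across the 8 paralogue pairs the differences of the ratios ran from -0.23 to 0.05, and every exact permutation p was 0.9 after adjustment over the pairs. No pair separated the genotypes on all 6 arrays. Slc17a7 to Slc17a6 did so without heterozygous 1 or without wild type 3, and Cplx2 to Cplx1 and Syngr1 to Syngr3 did so without wild type 2. With 3 arrays against 2 separation is common: it held for 18.9%, 18.6% and 23.4% of all single genes without these arrays in turn. With 3 against 3 brains this test cannot reach 0.05, so equal response of the paralogues was not shown either. The Vamp2 to Vamp1 ratio, with a difference of -0.10, carried the spread of Vamp2 and ranged from -0.05 to 0.64 in heterozygous and 0.17 to 0.63 in wild-type brains.

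**Figure D5:**
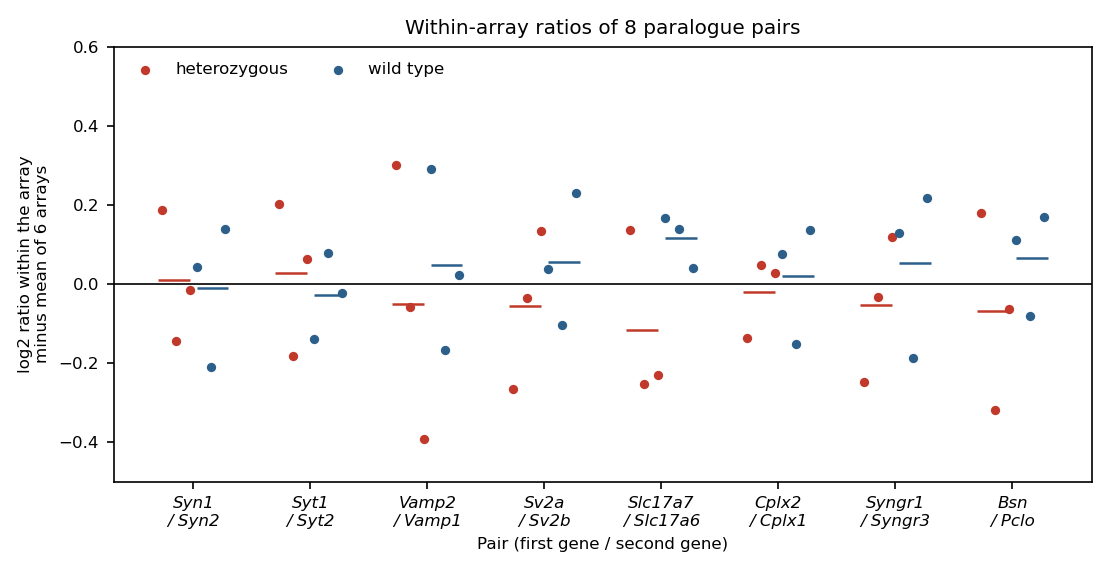
Log2 ratio of the brightest probe sets of 8 paralogue pairs within each array, minus its mean over the 6 arrays; points are arrays and bars the mean of 3 heterozygous (red) or 3 wild-type (blue) brains. The genotypes overlap in every pair, and the largest difference of the means is -0.23 for Slc17a7 to Slc17a6.

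Seen by array, 1 wild-type brain stood above the others for these genes. On wild type 3, 27 of the 34 genes were above their own mean over the 6 arrays, where 49.2% of all genes tested were. On the other arrays the count was 13 to 17 of 34. The median deviation of the 34 genes was 0.05 on wild type 3 and -0.06 on heterozygous 2, with the other 4 arrays between -0.01 and 0.00, while the median over all genes stayed between -0.01 and 0.01 on every array. Without wild type 3 the median log2 difference of the 34 genes was 0.02, and without heterozygous 1 it was -0.04.

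The rest of the release and recycling machinery was examined through 111 further genes in 6 lists, of which 100 were tested. None passed the adjusted threshold. Without adjustment, 3 were higher and 2 lower at a limma p below 0.05, 5 of 100, where 4.42% of all genes were. The count was 3 without heterozygous 1, heterozygous 3 or wild type 1, where 4.14%, 5.11% and 3.46% of all genes were at that level, and 8 without wild type 2, against 6.08%. In sign 40 were higher and 60 lower, with a median log2 difference of -0.01. Of all 13024 genes tested, 6769 were higher and 6255 lower in sign.

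Among 22 genes of priming and the active zone, 2 were at that level (9.09%), both higher. Over all genes, 4.42% were at that level and 2.14% were higher. The lists were chosen with earlier results of these data known, so this share is a description and no test of the list. Unc13a, which primes docked vesicles, measured 321, 309 and 281 in heterozygous and 201, 206 and 199 in wild-type brains (0.55, SE 0.10, limma adjusted p = 0.541). Rab3a, a vesicle GTPase, was at 1.11 (SE 0.26, limma adjusted p = 0.956) by 1459980_x_at. The _x_at suffix marks probes that can match other transcripts. Wild type 1 measured 2601 and the other wild-type brains 1159 and 1138, against 2824 to 3750 in heterozygous brains. The SD within wild type was 0.675 on the log2 scale. Of 20 other SNAREs and adaptors, Stx6 was at -0.27 (SE 0.10) by 1460004_x_at and Stx3 at 0.29 (SE 0.12). These were the 2 with a p below 0.05 (10%, against 4.42% of all genes).

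Of 13 further vesicle membrane genes, 2 were higher and 11 lower in sign, with a median of -0.10. Over all genes tested, 6769 were higher and 6255 lower, with a median of 0.01. Syngr2, a synaptogyrin of tissues outside the brain as well, was at -0.31 (SE 0.13) and the zinc transporter gene Slc30a3 at -0.22 (SE 0.12). No gene among 8 other synaptotagmins, 15 subunits and accessory proteins of the vesicle proton pump and 22 further endocytosis genes had a p below 0.05. The 2 smallest p in each were those of Syt12 at 0.29 (SE 0.15) and Syt9 at 0.19 (SE 0.11), Atp6v1g1 at -0.24 (SE 0.12) and Atp6v1g2 at 0.14 (SE 0.10), and Cltb at 0.14 (SE 0.08) and Itsn1 at -0.23 (SE 0.15).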

How the data were processed

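Whole-brain RNA from 6 mice was labelled with an oligo(dT) primer and hybridised to 1 array per brain, per the labels' protocols. The values are the deposited probe-set intensities, 1 linear number per probe set and array, with the summarising software not given in the sources used here. On every array the central 96% of values had a mean of 150, so the authors had scaled the deposited intensities to a common level. The number of arrays limits the precision.

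Of 45101 probe sets, 64 manufacturer controls were set apart. The platform annotation gave 1 gene for 34945, several for 932 and none listed for 9160. Symbols were updated through Entrez identifiers against RefSeq (GRCm38.p6), where 34741 matched. Probe sets with a mean signal at or below the 40th percentile, 19.05, were removed (18015). Intensities were transformed as log2(value + 16) and compared with limma 3.58.1 (R 4.3.3), through lmFit and then eBayes with its trend option, without covariates. All tests were two-sided, and the steps were tested on simulated data. The members, gene lists, pairs and tests were chosen with earlier results of these data known, so no list is tested as a whole.

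Every member is named by its brightest tested probe set. Values on each array are given for probe sets with an unadjusted p below 0.05, for genes whose brightest probe set had no overlap, for a fixed set of main genes of each role, and for the widest spread in each role. Some probe sets were singled out for 1 gene after their values were seen, namely those of Syn2, Sypl, Syt11, Cplx1 and Sh3gl2 without overlap, and the markers Fat2 and Zic2 likewise. In each further list the 2 genes with the smallest p are named.

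Alternatives were pseudocounts of 1 and 64, other dim filters, quantile normalization, median centring, other eBayes settings, array weights, a replicate block, other choices of probe set and leaving out each array. For the further lists they were added after the data had been seen.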

Additional observations from a re-analysis of the deposited data

How the results depend on the processing

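No vesicle or SNARE probe set passed the adjusted threshold under any alternative run, and Slc17a7 kept its sign and an unadjusted limma p below 0.05 in all 17. The count of member probe sets at an unadjusted p below 0.05, 2 in the reported fit, was 1 with the dim filter at the 60th percentile (1.33%, against 4.88% of all probe sets), 4 with each array centred on its median (4.76%, against 5.12%) and 2 to 6 when 1 array was dropped (2.38 to 7.14%, against 4.02 to 6.09%). By gene it was 2 with quantile normalization, Slc17a7 and Syt11. The numbers without overlap were 17 probe sets with median centring (20.2%, against 10.5% of all), 5 genes with quantile normalization (14.7%, against 10.5%) and 1 gene without _s_at and _x_at probe sets (10.4% of all genes). With single arrays left out they were 14 to 25 probe sets (16.7 to 29.8%, against 18.7 to 22.4% of all) and 3 to 12 genes (8.82 to 35.3%, against 18.2 to 23.4%). The median log2 difference was -0.062 over probe sets and -0.041 over genes with median centring, and with single arrays left out it ran from -0.045 to 0.006 and from -0.04 to 0.02. The probe sets called over the whole array numbered 4, but 1 without the dim filter, 1 without the eBayes trend and 1 to 14 with single arrays left out. Further genes of the pathway at a p below 0.05 numbered 5, but 3 without the trend and 3 to 8 with single arrays left out. Between 0 and 2 of the 8 paralogue pairs were without overlap when 1 array was left out, where 18.2 to 23.4% of all single genes were. The causes of these shifts were not tested.

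The titles share replicate numbers, except for 1 heterozygous title without a number. Deviations from the genotype means correlated at 0.09, 0.20 and -0.02 for arrays of the same number, with the unnumbered one taken as 1. For arrays of different numbers they correlated at -0.16 to 0.08. These values do not settle whether the numbers mark pairs. The numbers were not taken as pairs in the reported fit, since the labels do not say that they mark anything shared. With the replicate block over 6 arrays, 8 member probe sets (9.52%, against 7.06% of all) and 9 of 100 pathway genes (against 6.7% of all genes) had a p below 0.05. With the replicate block over the 4 arrays numbered II and III, 9 member probe sets (10.7%, against 5.87% of all) and 2 genes (5.88%, against 5.58%) had a p below 0.05, 21 probe sets (25%, against 29.9%) and 6 genes (17.6%, against 29.5%) were without overlap, the median over genes was -0.043, and 43 probe sets were called over the whole array, none of them a member.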
